A study of Mus musculus with 12 samples.

Results

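Genes of glycolysis and lactate export were followed in primary mouse adult fibroblasts (MAFs) exposed to thymol. The 10 genes (*Slc2a1*, *Hk2*, *Pfkl*, *Aldoa*, *Pgk1*, *Pkm*, *Pfkfb3*, *Ldha*, *Slc16a3* and *Pdk1*) were listed by name, and all 10 were found by symbol among the 10697 genes of the deposited table. The MAFs were wild type (WT), were grown out of biopsies from C57BL6/j mice in high-glucose medium with serum, and received either 100 µM thymol dissolved in DMSO or an equal volume of DMSO, both for 24 h. Each group had 6 libraries, and the mice's age was not given in the sources used here. Nothing in the labels says whether the 6 libraries of a group came from separate cultures or animals, so p values measured only the spread between these libraries, which may be technical. RNA was counted by 3′ tag sequencing, in which a read marks the 3′ end of a transcript, so levels in counts per 1000000 reads (CPM) were compared between genes without division by length.

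Glycolysis breaks glucose down to pyruvate in the cytosol and yields a small amount of ATP and NADH without oxygen. Pyruvate then either enters mitochondria, where pyruvate dehydrogenase turns it into acetyl-CoA, or is reduced to lactate, which regenerates NAD+ and leaves the cell through monocarboxylate transporters together with a proton. Cultured fibroblasts in high-glucose medium are known to run glycolysis at a high rate, and several of these genes are textbook targets of hypoxia-inducible factor (HIF), a transcription factor that binds the core letters ACGTG or GCGTG. *Slc2a1* encodes the glucose transporter GLUT1. *Hk2*, *Pfkl*, *Aldoa*, *Pgk1* and *Pkm* encode hexokinase 2, liver-type phosphofructokinase, aldolase A, phosphoglycerate kinase 1 and pyruvate kinase M. *Pfkfb3* encodes the enzyme that makes fructose 2,6-bisphosphate, the activator of phosphofructokinase. *Ldha* encodes lactate dehydrogenase A, *Slc16a3* the lactate exporter MCT4, and *Pdk1* a kinase that inactivates pyruvate dehydrogenase.

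The libraries held 6240828 to 8064382 recovered reads in DMSO and 5435985 to 9049796 with thymol (n = 6 each). Markers were read against the fibroblast label. Of 15 fibroblast markers 13 were in the table, and *Col1a1*, a collagen chain made by fibroblasts, averaged 11.95 log2 CPM in DMSO. All 17 macrophage markers were also in the table, with the lysozyme gene *Lyz2* at 13.61 log2 CPM in DMSO, so genes that mark macrophages were as prominent as those that mark fibroblasts, and the labels do not mention them. The mean macrophage marker level was 8.49 ± 0.029 log2 CPM in DMSO and 8.50 ± 0.048 with thymol (exact two-sided permutation p = 0.561). Of the 17 markers 3 passed the test over all genes, which 2.22% of all genes passed, with *Ctss* and *Mpeg1* higher and *Itgam* lower. The summed fibroblast markers ranged from 15298 to 16449 CPM in DMSO and from 14419 to 15098 CPM with thymol, without overlap (exact two-sided permutation p = 0.00216, the smallest the 924 relabelings allow). Their mean log2 CPM overlapped, from 8.75 to 8.88 in DMSO and from 8.67 to 8.77 with thymol (exact two-sided permutation p = 0.00433). The summed macrophage markers were 20134 ± 683 CPM in DMSO and 21082 ± 1360 CPM with thymol (exact two-sided permutation p = 0.139). Of the 13 fibroblast markers 2, *Col1a1* and *Col3a1*, passed the test over all genes, both lower. None of 6 keratinocyte and epithelial markers, 1 of 5 endothelial, 2 of 5 skeletal muscle and 1 of 4 adipocyte markers were in the table, and the skeletal actin gene *Acta1* was lower with thymol. In such bulk libraries, fewer cells of a type and less RNA per cell cannot be told apart, and it cannot be told which cell type a glycolytic transcript came from.

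The promoters of all 10 members were read from RefSeq (GRCm38.p6) because the HIF core letters can be seen in them directly. In the 250 bases before each annotated start, ACGTG or GCGTG on either strand was found in 13 of 16 windows and in at least 1 window of each member, and 6 members had a window with 2 or more. Across windows of the genes in the table, 56.6% of 10983 held either motif and 28.1% held 2 or more, so such letters were common. These shares are per window. Some members had several windows and no share per gene was computed, so the counts per member have no background here. The palindrome CACGTG, which contains ACGTG on both strands and is also read by MYC and related factors, was in 8.48% of those windows. Each window printed below held 2 or more matches, and windows with fewer, like those of the other members, are not printed. The last 150 bases before an annotated start are given for the lactate exporter, for lactate dehydrogenase A and for *Pgk1*. The motif letters are in capitals (CACGT is ACGTG on the other strand).
Slc16a3 (chr11:120948917-120949066, plus strand): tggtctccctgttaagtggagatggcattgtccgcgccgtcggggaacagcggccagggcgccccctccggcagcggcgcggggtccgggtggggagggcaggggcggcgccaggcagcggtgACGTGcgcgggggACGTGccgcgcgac
Ldha (chr7:46845654-46845803, plus strand): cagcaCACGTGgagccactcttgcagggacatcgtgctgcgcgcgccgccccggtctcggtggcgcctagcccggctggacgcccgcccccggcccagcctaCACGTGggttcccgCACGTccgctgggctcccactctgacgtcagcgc
Pgk1 (chrX:106186950-106187099, plus strand): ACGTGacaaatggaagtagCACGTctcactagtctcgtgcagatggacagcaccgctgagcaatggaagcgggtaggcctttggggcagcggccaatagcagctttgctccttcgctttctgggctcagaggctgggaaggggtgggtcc
In *Slc16a3* the 2 ACGTG matches began 27 and 14 bases before the start, close together. In the printed *Ldha* window 5 matches were counted because each of the 2 CACGTG palindromes was counted on both strands. The other *Ldha* window, before a different annotated start, held 1 match. A match describes letters only, and tags from the 3′ end do not say which start a transcript used.

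The levels of the members in DMSO spanned from 8.56 to 999 CPM. *Pkm* was highest at 999 ± 56.8 CPM, followed by *Aldoa* at 849 ± 67.4 CPM and *Ldha* at 368 ± 35.1 CPM (SD, n = 6). A middle tier held *Hk2* at 126 ± 10.1, *Slc2a1* at 95.9 ± 7.84, *Pfkl* at 81.5 ± 3.74, *Slc16a3* at 80.7 ± 7.98 and *Pfkfb3* at 45.1 ± 6.45 CPM. *Pdk1* at 17.7 ± 4.53 CPM and *Pgk1* at 8.56 ± 2.49 CPM were lowest. Of the neighbors in this order, *Pkm* and *Aldoa*, *Pfkl* and *Slc16a3*, and *Pdk1* and *Pgk1* overlapped between DMSO libraries, whereas no other neighboring pair overlapped. *Pgk1*, a gene of the main pathway, thus rested on a mean of 58.2 reads per thymol library, against 6045 for *Pkm*. The members together made 0.267% ± 0.011 of all reads in DMSO and 0.252% ± 0.012 with thymol.

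Some of these levels could be shared with near-identical copies. Among the last 300 bases of annotated transcripts (GENCODE vM21), up to 39.8% of 50-base words in *Aldoa*, 46.6% in *Pkm* and 48.6% in *Ldha* were also found in transcripts of other genes, which were pseudogenes for *Pkm* and *Ldha* and 5 of 6 pseudogenes for *Aldoa*, whereas the other 7 members, *Slc16a3* and *Pgk1* included, had 0%. These are the highest shares over the annotated transcript ends of a gene, and the lowest was 0% in *Aldoa*, *Pkm* and *Ldha* alike. How far the values of these genes are affected was not tested.

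Thymol was compared with DMSO to find which of these genes differed after 24 h. *Slc16a3* was lower with thymol, and it was the member that passed the test over all genes. The other 9 did not pass: 7 had a lower and 2 a higher mean with thymol, all within 0.16 log2 units of 0. Of the 10 members, 1 was called at adjusted p under 0.05 (limma, Benjamini-Hochberg over 10697 genes), where 2.22% of all genes were called in either direction and 1.57% were called lower. At an unadjusted p under 0.05 there were 2 members (*Slc16a3* and *Pkm*), against 11.8% of all genes, and in 1 member the 2 groups did not overlap, against 1.68% of all genes. The median log2 fold change of the members was −0.081, and that of all genes was 0.0026. The mean was lower with thymol in 8 of 10 members and in 49.1% of all genes.

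**Figure D1:**
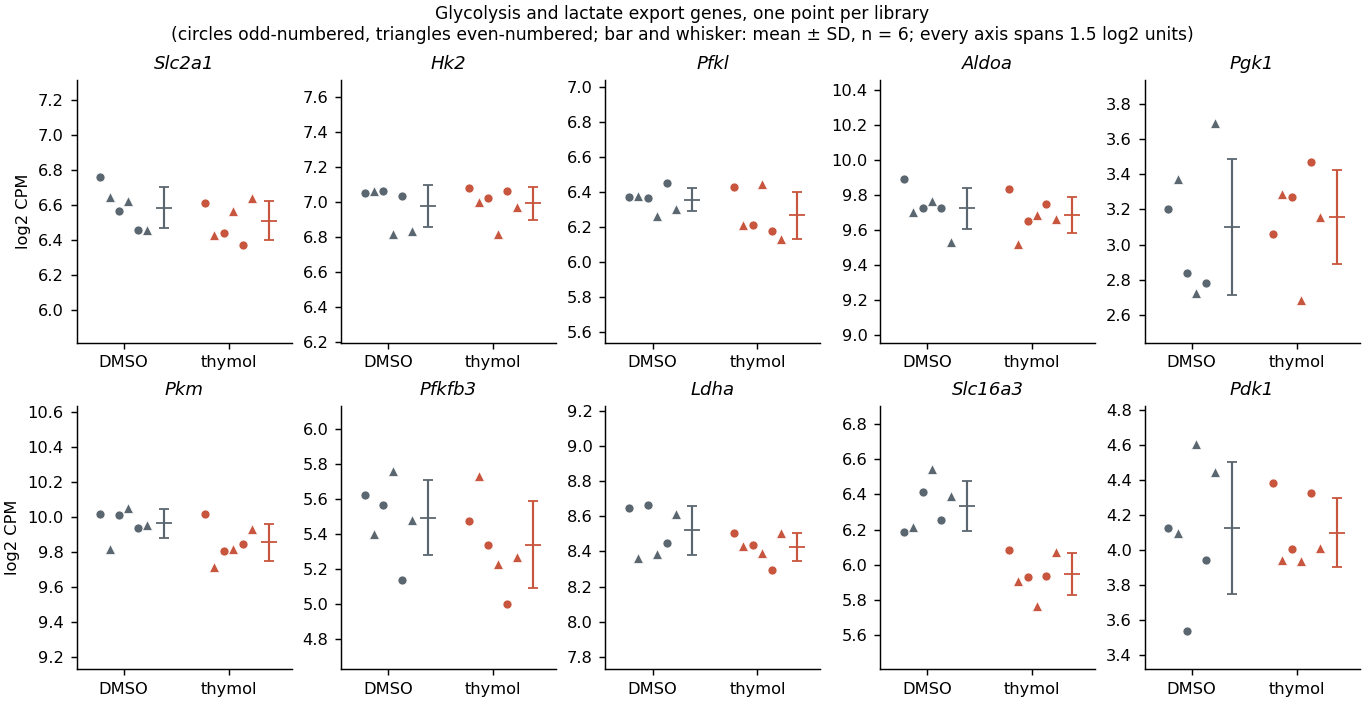
Level of each of the 10 genes in every library (vertical axes, log2 CPM, each spanning 1.5 units; gray DMSO, red thymol; circles odd-numbered and triangles even-numbered libraries; bar and whisker, mean ± SD, n = 6). In *Slc16a3* the 6 thymol points lie below the 6 DMSO points, from 5.76 to 6.08 against 6.18 to 6.55, and in the other 9 panels the groups overlap.

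*Slc16a3* (ENSMUSG00000025161, chr11:120948480-120960868 of GRCm38, plus strand, protein coding) encodes MCT4, the transporter through which strongly glycolytic cells export lactate. Its log2 CPM in DMSO libraries 1 to 6 was 6.18, 6.21, 6.41, 6.55, 6.26 and 6.39. With thymol the same order gave 6.08, 5.91, 5.93, 5.76, 5.93 and 6.07. Every thymol library lay below every DMSO library, with a gap of 0.10 between the highest thymol and the lowest DMSO value. The difference was −0.39 ± 0.085 log2 units (SE, 95% confidence interval −0.56 to −0.22, limma adjusted p = 0.00399), a change of −23.5% (−32.1 to −13.9%). In linear terms the level was 80.7 ± 7.98 CPM in DMSO and 61.6 ± 5.05 CPM with thymol, from about 571 and 402 reads per library. Within odd library numbers it was −0.30 and within even numbers −0.47, a gap that did not pass (limma interaction adjusted p = 0.997).

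The call on *Slc16a3* was lost without the trend of variance on level (limma adjusted p = 0.0639) and in the odd-numbered libraries alone (0.385), and it was kept in the even-numbered ones (0.0255). An exact rank-sum test per gene called 0 genes (1016 at an unadjusted p under 0.05, where limma gave 1261). Its smallest adjusted p was 0.129, that of every gene without overlap, *Slc16a3* included, so with 6 libraries a group it could call no gene here. The summed fibroblast markers were also lower with thymol. The log2 fold changes of the 13 fibroblast markers ran from −0.54 in *Col3a1* to 0.33 in *Pdgfra*, with −0.28 in *Col1a1* and a median of −0.099. Once group means were removed, the correlation of *Slc16a3* across the 12 libraries was 0.61 with the fibroblast marker mean and 0.18 with the macrophage marker mean; the part of the marker levels in the *Slc16a3* difference was not tested.

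*Pkm* encodes the enzyme of the last step, from phosphoenolpyruvate to pyruvate. Its lowest, median and highest log2 CPM were 9.81, 9.98 and 10.05 in DMSO and 9.71, 9.83 and 10.01 with thymol, so the thymol values sat lower but overlapped. The difference was −0.11 ± 0.050 (95% confidence interval −0.21 to −0.0091, unadjusted p = 0.0332, limma adjusted p = 0.353). *Ldha*, which turns pyruvate into lactate, ranged from 8.36 to 8.67 in DMSO and from 8.29 to 8.51 with thymol. Its difference was −0.093 ± 0.058 (limma adjusted p = 0.574), and its 95% confidence interval, −0.21 to 0.023, did not reach the *Slc16a3* estimate of −0.39. The 95% confidence interval of *Slc16a3* itself, −0.56 to −0.22, came close to that of *Ldha*. These intervals are for single genes and are not adjusted for the number of genes. Here and below, differences between genes were not tested.

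At glucose entry, *Slc2a1* ranged from 6.45 to 6.76 log2 CPM in DMSO and from 6.37 to 6.64 with thymol, with 3 thymol libraries below all DMSO libraries. The difference was −0.075 ± 0.077 (limma adjusted p = 0.796), with a 95% confidence interval of −0.23 to 0.079. *Hk2*, which traps glucose as glucose 6-phosphate, ranged from 6.82 to 7.06 in DMSO and from 6.82 to 7.08 with thymol. Its difference was 0.014 ± 0.070 (limma adjusted p = 0.976), with a 95% confidence interval of −0.13 to 0.15, so the *Slc16a3* estimate of −0.39 lay outside it.

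Among the middle steps, *Pfkl*, an isoform of the enzyme that commits sugar to glycolysis, differed by −0.088 ± 0.080 (95% confidence interval −0.25 to 0.073). Its DMSO values were tight, from 6.26 to 6.45 log2 CPM, and those with thymol ran from 6.13 to 6.45. *Aldoa*, which splits fructose 1,6-bisphosphate, differed by −0.039 ± 0.052, with values from 9.53 to 9.89 in DMSO and from 9.52 to 9.83 with thymol. *Pgk1*, which makes the first ATP of the pathway, ranged from 2.72 to 3.69 in DMSO and from 2.69 to 3.47 with thymol. Its difference was 0.055 ± 0.22, with a 95% confidence interval of −0.40 to 0.51, which held the *Slc16a3* estimate of −0.39 as well as 0.

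Both regulators had wide spreads. *Pfkfb3* ranged from 5.14 to 5.76 log2 CPM in DMSO and from 5.00 to 5.73 with thymol, and its difference was −0.15 ± 0.11 (limma adjusted p = 0.669). *Pdk1* gave 4.13, 4.10, 3.54, 4.60, 3.94 and 4.44 in DMSO libraries 1 to 6, and 4.38, 3.94, 4.01, 3.94, 4.32 and 4.01 with thymol. The mean difference of −0.025 ± 0.17 covered opposite signs, 0.37 for odd and −0.42 for even library numbers. This gap of 0.79 ± 0.32 had an unadjusted p of 0.0176 in the limma interaction fit but an adjusted p of 0.992. Over all genes 531 interactions (4.96%) had an unadjusted p under 0.05 and 0 passed after adjustment. Between odd- and even-numbered DMSO libraries 12 genes differed at adjusted p under 0.05, and 0 of them were members. This split was made after an earlier description of these data had found the odd and even DMSO libraries to differ.

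**Figure D2:**
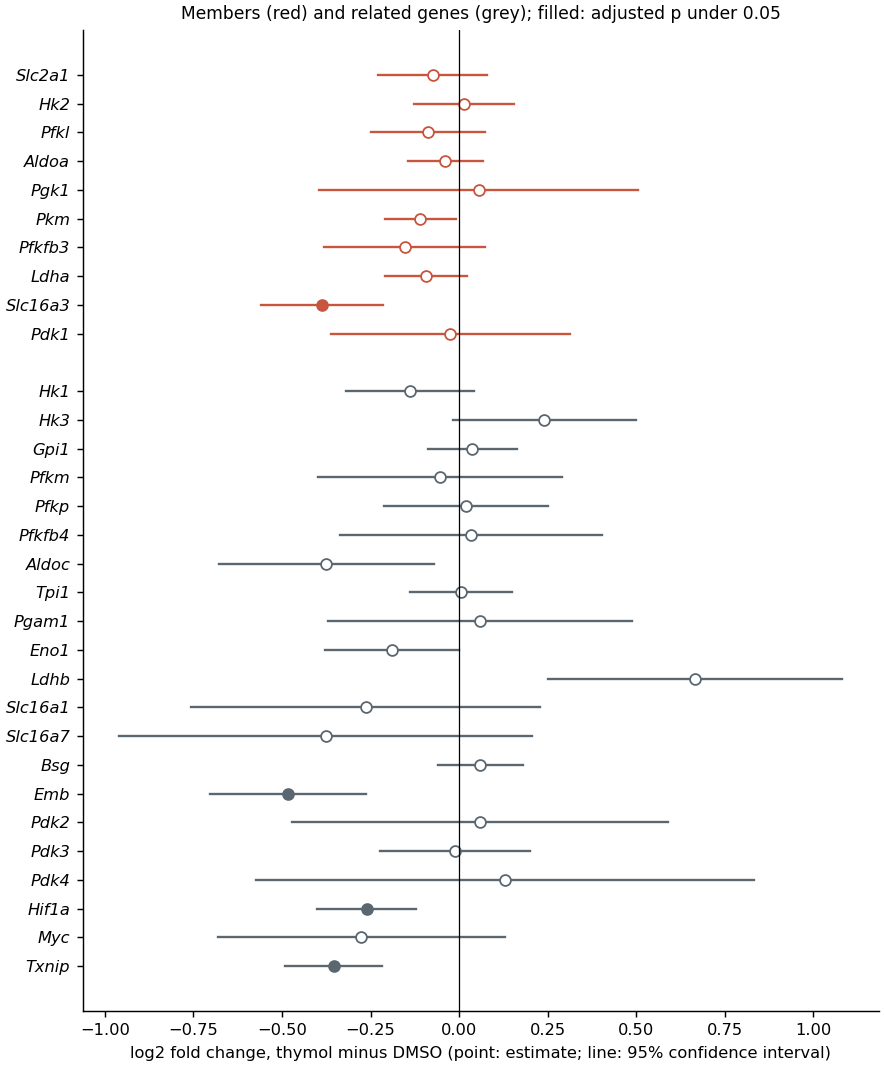
Log2 fold change of thymol minus DMSO (horizontal axis) for the 10 members in red and for related genes in gray, with 95% confidence intervals as lines; filled points had an adjusted p under 0.05. Among the members *Slc16a3* at −0.39 is filled, and among the related genes *Emb* at −0.48, *Txnip* at −0.35 and *Hif1a* at −0.26 are filled.

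The other genes of the pathway were counted from fixed lists. Of 42 further glycolysis and lactate genes 23 were in the table. Among them 1 was called, which was lower, and 4 (*Emb*, *Ldhb*, *Aldoc* and *Slc2a6*) had an unadjusted p under 0.05, against 11.8% of all genes. Their median log2 fold change was −0.00037. The called gene was *Emb*, which encodes embigin, an accessory protein of monocarboxylate transporters. In DMSO *Emb* ranged from 5.44 to 5.58 log2 CPM with a median of 5.54, and with thymol from 4.82 to 5.47 with a median of 4.99. Of the thymol libraries 5 lay below all DMSO libraries, and library 1, at 5.47, lay inside the DMSO range. The difference was −0.48 ± 0.11 (limma adjusted p = 0.00517). *Emb* did not pass in the odd-numbered (limma adjusted p = 0.351) or the even-numbered libraries alone (0.0673).

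*Slc2a6*, a glucose transporter gene named after its value was seen, had the lowest fold change of the 23, −0.56 ± 0.25 (unadjusted p = 0.027, limma adjusted p = 0.320). It ranged from 2.64 to 3.39 log2 CPM in DMSO and from 2.19 to 3.08 with thymol, with 5 thymol libraries below all DMSO libraries, on a mean of 58.7 reads per DMSO library. The 3 glucose transporters of this list, *Slc2a6* included, all had a lower mean with thymol, as did 49.1% of all genes, and none passed. *Slc2a8* differed by −0.23 ± 0.15 and *Slc2a10* by −0.023 ± 0.11, the latter near 0.

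The remaining genes of lactate transport did not pass. *Bsg*, which encodes basigin, the chaperone that carries MCT1 and MCT4 to the membrane, was far more abundant than *Slc16a3* or *Emb* at 8.21 log2 CPM in DMSO. It ranged from 8.04 to 8.29 in DMSO and from 8.14 to 8.46 with thymol, and differed by 0.060 ± 0.059 (limma adjusted p = 0.789). *Slc16a1* (MCT1), which can carry lactate in either direction, was near 3.37 log2 CPM in DMSO with a difference of −0.26 ± 0.25, and *Slc16a7* (MCT2) was near 2.53 with −0.38 ± 0.29. *Slc16a3* made 83.2% of the summed CPM of these 3 transporters in DMSO (79.8 to 89.7%) and 82.3% with thymol (74.7 to 88.0%). The mean for each group thus lay within the range of the other.

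*Ldhb*, the lactate dehydrogenase subunit that favors the step from lactate back to pyruvate, had the highest fold change of these 23 genes. Its DMSO values from 1 to 6 were 3.62, 3.23, 2.86, 2.91, 2.78 and 2.71 log2 CPM, and with thymol 3.87, 3.74, 3.49, 3.30, 3.77 and 3.92. The groups overlapped through DMSO library 1. The difference of 0.67 ± 0.21 had an unadjusted p of 0.00229 and did not pass (limma adjusted p = 0.0767), and it rested on about 57 reads per DMSO library. *Ldha* made 97.9% of the summed CPM of *Ldha* and *Ldhb* in DMSO (97.1 to 98.4%) and 96.4% with thymol (95.9 to 97.2%), with an exact two-sided permutation p of 0.00433, the smallest of the 7 isoform shares compared (Benjamini-Hochberg over the 7, 0.0303). This share was computed beside the fits, moves with *Ldhb*, which did not pass over all genes, and is open to pseudogene copies in both genes (4.38 to 25.1% of words in the 3′ ends of *Ldhb*). Lactate dehydrogenase RNA was therefore almost wholly *Ldha* in both groups.

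**Figure D3:**
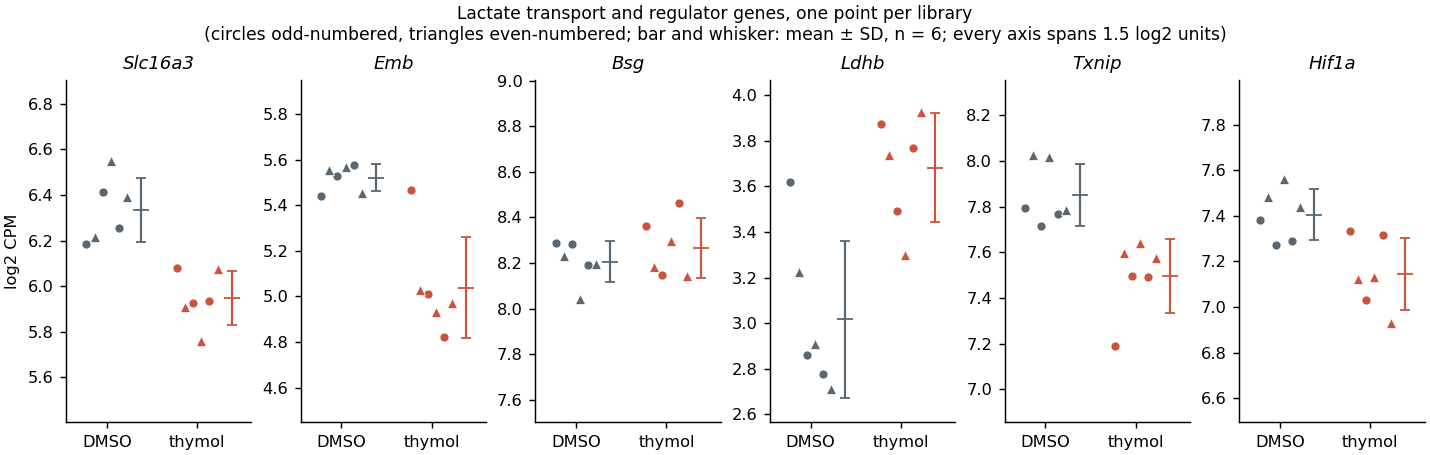
Levels of *Slc16a3*, *Emb*, *Bsg*, *Ldhb*, *Txnip* and *Hif1a* in every library (vertical axes, log2 CPM, each spanning 1.5 units; gray DMSO, red thymol; circles odd-numbered and triangles even-numbered libraries; bar and whisker, mean ± SD, n = 6). The thymol points of *Slc16a3* and *Txnip* lie wholly below those of DMSO, and *Emb* overlaps through thymol library 1 at 5.47. *Bsg* overlaps in part, with 3 thymol points above all DMSO points.

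The paralogs of the other members also failed to pass. *Hk2* made 51.2% of the hexokinase CPM in DMSO and 52.2% with thymol, with *Hk1* at −0.14 ± 0.090 and *Hk3*, a hexokinase of myeloid cells, at 0.24 ± 0.13. *Pfkl* made 58.4% of phosphofructokinase CPM in DMSO and 57.1% with thymol, and its paralogs *Pfkm* and *Pfkp* differed by −0.054 ± 0.17 and 0.019 ± 0.12. *Aldoa* made over 96% of aldolase CPM in every library, the lowest being 96.5%. *Aldoc* differed by −0.37 ± 0.15 with an unadjusted p of 0.0164 (limma adjusted p = 0.253). *Pfkfb4*, the paralog of *Pfkfb3*, differed by 0.033 ± 0.18. In the *Pdk* family *Pdk1* made 23.1% of the CPM in DMSO, and *Pdk3*, at 5.52 log2 CPM in DMSO, was the most abundant, with a difference of −0.012 ± 0.11. *Pdk2* and *Pdk4*, both under 3 log2 CPM, differed by 0.059 ± 0.26 and 0.13 ± 0.35.

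None of the measured steps that the members leave out passed. *Gpi1* and *Tpi1*, the isomerases of glucose 6-phosphate and of triose phosphates, differed by 0.038 ± 0.062 and 0.0049 ± 0.072. *Pgam1* (phosphoglycerate mutase), at 3.17 log2 CPM in DMSO as low as *Pgk1*, differed by 0.059 ± 0.21. *Eno1* (enolase) differed by −0.19 ± 0.094 (limma adjusted p = 0.428), but at least 64.5% of the words in its 3′ ends were shared with other genes. *Gapdh*, *Slc2a3* and *Pfkfb2* were listed too, but were not found by symbol among the genes of the deposited table.

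Pyruvate entry into mitochondria, the other route for the product of glycolysis, gave 0 called genes of 14 in the table, with 0 at an unadjusted p under 0.05 and a median of 0.053. The smallest p values were those of *Pdp1*, a phosphatase that reactivates pyruvate dehydrogenase (0.39 ± 0.23, unadjusted p = 0.103 in limma), and *Pdha1*, a subunit of that enzyme (−0.11 ± 0.069, unadjusted p = 0.103 in limma). In the pathways that branch from glycolysis 0 of 29 genes were called and the median was −0.023. Of the 29, 5 (17.2%) had an unadjusted p under 0.05, against 11.8% of all genes. Of these, *Psat1*, an enzyme of serine synthesis from a glycolytic intermediate, differed by 0.24 ± 0.074 (limma adjusted p = 0.0665), and *Slc25a13*, a mitochondrial aspartate-glutamate carrier, by −0.40 ± 0.14 (limma adjusted p = 0.150).

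Of 14 measured regulators of glycolytic genes 2 were called, both lower with thymol, where 1.57% of all genes were called lower. The mean was lower in 10 of the 14. *Txnip* encodes an arrestin-like protein that restrains glucose uptake and whose transcript is known to rise with intracellular glucose metabolites. It ranged from 7.71 to 8.02 log2 CPM in DMSO with a median of 7.79, and from 7.19 to 7.64 with thymol with a median of 7.53. The groups did not overlap, and the difference was −0.35 ± 0.068 (limma adjusted p = 0.000705), with −0.37 for odd and −0.34 for even library numbers. Without the trend of variance on level the limma adjusted p was 0.118. *Arrdc4*, its paralog with the same glucose-sensing control, differed by −0.40 ± 0.16 (limma adjusted p = 0.251). It is named outside the rule given below. *Max*, *Mlx* and *Mlxip* of the same list differed by −0.038 ± 0.064, −0.018 ± 0.11 and 0.0019 ± 0.14.

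*Hif1a*, the oxygen-regulated subunit of HIF, ranged from 7.27 to 7.56 log2 CPM in DMSO and from 6.93 to 7.33 with thymol. The difference was −0.26 ± 0.070 (limma adjusted p = 0.0267), and the groups overlapped. It was −0.090 for odd and −0.43 for even library numbers (limma interaction unadjusted p = 0.0121, adjusted p = 0.992). The call was lost without DMSO library 2, 4 or 6 or thymol library 2, 3 or 6, each left out alone, with adjusted p values up to 0.130. It was also lost without the variance trend (limma adjusted p = 0.245) and in the odd-numbered libraries alone (0.897). *Myc* differed by −0.28 ± 0.20 (limma adjusted p = 0.666). Of 14 measured HIF targets outside glycolysis none was called and 1 had an unadjusted p under 0.05, against 11.8% of all genes. Their mean was lower with thymol in 10 of 14 (49.1% of all genes), with a median of −0.091. The smallest p values were those of *Mxi1* (−0.27 ± 0.13, unadjusted p = 0.0387 in limma) and *Bhlhe40* (0.29 ± 0.15, unadjusted p = 0.0525 in limma), which had opposite signs.

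**Figure D4:**
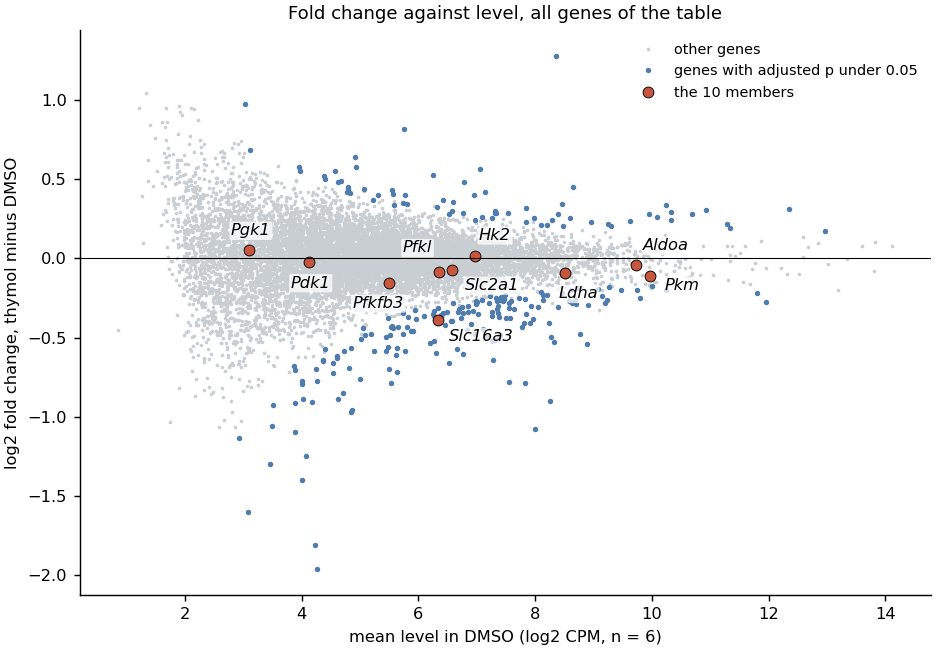
Mean log2 CPM in DMSO (horizontal axis) against log2 fold change of thymol minus DMSO (vertical axis) for the 10697 genes of the table, with the 238 genes at adjusted p under 0.05 in blue and the 10 members in red. *Slc16a3* at −0.39 is the member that lies among the called genes, and the other members lie between −0.15 and 0.055.

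Correlations among the members were mostly weak. With group means removed, 29 of the 45 pairs of members had a positive correlation over the 12 libraries, with a median of 0.081 and a range from −0.47 to 0.64. The highest were *Pkm* with *Slc16a3* (0.64), *Aldoa* with *Pkm* (0.61) and *Slc2a1* with *Aldoa* (0.58), and the lowest was *Pfkl* with *Pgk1* (−0.47). The genes whose residual pattern was most like that of *Slc16a3* over the same 12 libraries, out of the whole table, were *Atp6v1a* (0.91), *Reps2* (0.84), *Prkab1* (0.83), *Rbl2* (0.82) and *Triobp* (0.82). None of these 5 passed the test of thymol against DMSO (limma adjusted p from 0.466 to 0.867). These coefficients describe 12 libraries whose depth and marker levels also varied, and the 5 were picked as the highest in the table.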

How the data were processed

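Total RNA of MAFs was sequenced in 12 libraries from the 3′ end (QuantSeq FWD), and all groups were taken from the sample titles and treatment labels. Per the labels and the study's methods, the authors aligned reads to GRCm38 with STAR 2.5.3, counted them with HTSeq 0.6.1, removed low and nonannotated genes and scaled libraries by TMM (trimmed mean of M values). The deposited table holds log2 CPM with a small prior count, 1.96 reads in a library of mean size. Handling of multiply aligned reads is not given in the sources used here.

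The log2 values were compared with limma 3.58.1 in R 4.3.3 (lmFit, eBayes with trend, two-sided, Benjamini-Hochberg over 10697 genes, threshold 0.05). No value was added and no gene filtered. Reads per gene were recovered from the steps of the unlogged values, and for genes under 200 reads 100% of these came out whole to within 0.02. These reads gave depth and an alternative fit with limma-voom. Levels are means ± SD, differences are ± SE. Intervals cover the spread between libraries only. Single values per library were compared by exact permutation. Same-numbered thymol and DMSO libraries deviated together weakly or not at all (correlations from −0.051 to 0.27, 2 of 6 over 0.1). Numbers were therefore not used as pairs in the main fit, and a fit with them as a block is given below. A chi-square comparison of reads between libraries found no duplicates. Odd- and even-numbered libraries were fitted separately and in an interaction because they are deposited as 2 runs of numbers. An earlier description of these data had also found odd and even DMSO libraries to differ. The split was thus chosen with that result known. Scripts were tested on simulated data.

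The members, lists and tests were chosen with earlier results of these data known. Genes named are the 10 members, a fixed list of their paralogs, *Gpi1*, *Tpi1*, *Pgam1* and *Eno1* of the remaining steps, *Bsg*, *Hif1a*, *Myc* and *Txnip*, in each list the genes past the threshold or else the pair with the smallest p, and the 5 genes most like *Slc16a3*. Outside this rule *Slc2a6* and *Arrdc4* are named, with *Slc2a8* and *Slc2a10* beside *Slc2a6*, and *Max*, *Mlx* and *Mlxip* beside *Arrdc4*. Alternatives were the fit without trend, a replicate block, odd or even number as a term or alone, quantile and median scaling, 10 CPM added before the logarithm, genes with a mean log2 value of at least 5, limma-voom, an exact rank-sum test and each library left out.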

Additional observations from a re-analysis of the deposited data

Results flagged for a closer look

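Values were screened for a library far from the other 5 of its group by Dixon's ratio, in 36 groups of 6 libraries (the 10 members, the called pathway genes *Emb*, *Txnip* and *Hif1a*, *Ldhb*, *Bsg*, *Slc16a1*, the read totals and the members' share of reads). Chance flags about 1 in 20 such groups, or 1.8 here, and 3 were found, all with thymol and none in a member. *Emb* in thymol library 1 was at 5.47 log2 CPM, against 5.03 in the nearest and 4.82 in the farthest of the other 5 libraries. *Txnip* in the same library was at 7.19, against 7.49 and 7.64, so this library had the highest *Emb* and the lowest *Txnip* of its group. Its *Slc16a3*, at 6.08, was also the highest of the thymol libraries. Thymol library 5 held 9049796 recovered reads, against 6585162 in the next deepest.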

How the results depend on the processing

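Under 11 alternatives and with each of 12 libraries left out, *Slc16a3* was lower with thymol throughout, from −0.47 to −0.30 under the alternatives and from −0.42 to −0.34 when a library was left out, with an adjusted p of at most 0.0193 in the latter. It was −0.39 but did not pass without the variance trend (adjusted p = 0.0639) and in the exact rank-sum test (0.129, the smallest value that test could give here), and −0.30 in the odd-numbered libraries alone (0.385), so that 0 members were past the threshold in each of these 3 fits and 1 in the others. The count of genes past the threshold, 238, was 57 without the trend, 70 with odd library numbers alone and 0 by the rank-sum test, and 172 to 270 with a library left out. With the replicate number as a block it was 332, and *Slc16a3* kept −0.39 (adjusted p = 0.00312), so the block changed no call on a member. Nothing in the labels pairs libraries by number, and same-numbered libraries correlated at −0.051 to 0.27, with 2 of 6 correlating best with their own number. Members near 0 changed sign: *Pdk1* was 0.37 for odd library numbers and 0.011 with limma-voom, and *Pgk1* was −0.22 in the even-numbered ones. With a library left out, *Hk2* ranged from −0.018 to 0.049, *Pgk1* from −0.021 to 0.17 and *Pdk1* from −0.14 to 0.071, and without a change of sign *Aldoa* ranged from −0.078 to −0.0061, *Pfkfb3* from −0.23 to −0.087 and *Slc2a1* from −0.10 to −0.040. *Ldha* was −0.18 for odd and −0.011 for even library numbers. The causes were not tested. *Pdk1* and *Pgk1* gave no value among genes of at least 5 log2 CPM. The interaction and the odd against even difference in DMSO called 0 members with or without the trend. The fewest reads stood behind *Pgk1*, a mean of 58.2 per thymol library.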
